A study of Mus musculus with 48 samples.

Results

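Imprinted genes were followed across 5 mouse tissues. The list held 32 genes known in mouse to be expressed mainly from the allele of 1 parent, and 30 of them had at least 1 probe set on the Affymetrix array whose annotation gives that gene symbol alone. These 30 genes were read by 60 of the 22626 probe sets kept, which name 12393 genes in all. H19 and Zrsr1 had no such probe set and were not measured here. The 8 groups were testis, ovary, and male and female hypothalamus, kidney and liver, with 3 RNA samples in each group, 24 in all. According to the labels, RNA was bought ready made, each sample pooled from 10 animals, and went onto 2 arrays, which were averaged here. The groups carry no treatment or engineered allele in the labels, and neither strain nor age is given in the sources used here. No label states that a group holds 3 separate pools, so the spread between them, and every p-value below, may be partly technical.

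An imprinted gene carries a methylation mark that was set in the egg or the sperm and kept in the cells of the offspring, so that the maternal and the paternal copy are used unequally. Such genes lie in clusters that share a control region. Many of them act on growth of the embryo and placenta, and several are known in the brain for roles in feeding, maternal care and hormone release. The arrays read total transcript and do not tell the parental copies apart, so every value below is a level of both copies together. The expressed allele named beside a gene is background from other work on mouse. For several genes it holds in some tissues only: Grb10 uses its paternal copy in neurons, Igf2 uses both copies in choroid plexus and meninges, Gnas and Ube3a are imprinted in certain cell types, and Dcn, Nap1l4, Phlda2 and Asb4 are known as imprinted mainly from placenta or embryo.

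The start regions of 6 members with large tissue differences are shown because imprinted control regions act through methylated CpG pairs. Each runs from 250 bases before to 50 bases after the RefSeq transcript start in assembly GRCm38.p6, 5′ to 3′ along the gene, and capitals mark each CpG. On the plus strand lie Usp29 (chr7:6730333-6730632), Ndn (chr7:62348027-62348326), Nnat (chr2:157559828-157560127) and Plagl1 (chr10:13090582-13090881). On the minus strand lie Nap1l5 (chr6:58907077-58907376) and Phlda2 (chr7:143502475-143502774).
Usp29: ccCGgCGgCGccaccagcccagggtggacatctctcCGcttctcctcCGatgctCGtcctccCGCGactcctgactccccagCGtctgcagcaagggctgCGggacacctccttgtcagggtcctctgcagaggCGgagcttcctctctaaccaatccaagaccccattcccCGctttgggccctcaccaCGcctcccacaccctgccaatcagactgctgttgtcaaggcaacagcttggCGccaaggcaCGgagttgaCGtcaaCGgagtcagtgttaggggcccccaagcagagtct
Ndn: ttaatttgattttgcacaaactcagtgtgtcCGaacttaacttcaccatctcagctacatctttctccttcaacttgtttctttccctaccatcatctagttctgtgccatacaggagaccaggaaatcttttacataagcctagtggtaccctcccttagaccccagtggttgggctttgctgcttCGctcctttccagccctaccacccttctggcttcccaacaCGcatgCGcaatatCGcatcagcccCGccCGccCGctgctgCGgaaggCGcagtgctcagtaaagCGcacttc
Nnat: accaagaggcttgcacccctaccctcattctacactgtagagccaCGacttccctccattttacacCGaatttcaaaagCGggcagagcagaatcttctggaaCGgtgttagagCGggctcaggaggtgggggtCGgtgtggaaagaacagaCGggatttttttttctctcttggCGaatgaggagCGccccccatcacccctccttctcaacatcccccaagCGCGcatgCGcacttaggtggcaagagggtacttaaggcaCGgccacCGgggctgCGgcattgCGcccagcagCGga
Nap1l5: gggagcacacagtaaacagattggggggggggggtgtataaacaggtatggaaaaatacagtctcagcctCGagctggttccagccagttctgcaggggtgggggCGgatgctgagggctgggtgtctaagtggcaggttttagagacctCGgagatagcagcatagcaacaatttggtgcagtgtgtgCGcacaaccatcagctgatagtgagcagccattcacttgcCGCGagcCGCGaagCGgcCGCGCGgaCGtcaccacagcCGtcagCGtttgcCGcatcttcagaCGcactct
Plagl1: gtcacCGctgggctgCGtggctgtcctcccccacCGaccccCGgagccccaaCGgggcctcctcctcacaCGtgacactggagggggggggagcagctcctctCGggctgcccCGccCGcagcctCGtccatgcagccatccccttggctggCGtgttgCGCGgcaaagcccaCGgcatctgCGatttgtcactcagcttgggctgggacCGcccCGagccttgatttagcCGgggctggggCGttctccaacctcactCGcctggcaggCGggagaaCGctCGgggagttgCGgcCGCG
Phlda2: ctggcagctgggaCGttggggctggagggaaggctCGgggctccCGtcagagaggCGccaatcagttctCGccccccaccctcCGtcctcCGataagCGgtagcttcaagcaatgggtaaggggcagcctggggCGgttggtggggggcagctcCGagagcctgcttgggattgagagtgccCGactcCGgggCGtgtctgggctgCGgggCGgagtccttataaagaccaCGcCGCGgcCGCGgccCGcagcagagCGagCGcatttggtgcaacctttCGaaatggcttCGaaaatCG
These windows hold 17 CpG in Usp29, 11 in Ndn, 17 in Nnat, 17 in Nap1l5, 26 in Plagl1 and 26 in Phlda2. The window of Peg3, which is read on the minus strand, shares 263 bases (chr7:6730370-6730632) with that of Usp29, so the sequence printed for Usp29 is also most of the start region of Peg3. RefSeq windows were found for 25 of the 32 listed genes, 39 windows in all since some genes have several starts. They held a median of 14 CpG, against 7 CpG in all 32851 windows, with a range of 0 in Rian to 45 in Grb10, and 30 of the 39 held more than 7. The median GC content was 57.7%, against 52.7% in all windows. The 6 letters TGCCGC, which lie within the motif bound by the imprint-keeping zinc finger protein ZFP57, were searched on both strands and occurred in 11 of the 39 windows (28.2%), against 11.6% of all windows. The windows shown for Nap1l5, Nnat and Plagl1 hold this motif 2 times, 1 time and 1 time. The 11 windows belong to 10 genes, with overlapping windows of Mest among them. The 6 letters contain a CpG, and the shares were not compared at equal CpG content. These matches describe letters only, and the arrays measured neither methylation nor protein binding.

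The arrays shared a common scale, with a 2% trimmed mean of 500.11 to 500.23 on all 48, and intensities below are in these units. The 2 arrays of an RNA sample correlated at 0.966 to 0.990, and the small number of RNA samples per group limits precision. Sex labels were borne out in liver, kidney and hypothalamus, where the Y-linked Eif2s3y measured 138 to 347 in male samples against 1.55 to 22.9 in female samples. Tissue labels were borne out by defining markers: 9 neuron markers summed to 31084 to 32259 in hypothalamus and at most 831 elsewhere, 5 hepatocyte markers to 68789 to 80042 in liver, 6 proximal tubule markers to 43294 to 53221 in kidney and 9 germ cell markers to 69132 to 85410 in testis. The summed markers of exocrine pancreas were 7256 to 35946 in liver, 2378 to 4727 in kidney and at most 1539 in the other tissues. The kidney sum was mostly 1 marker, Cela1, at 2116 to 3736. Per the labels, hypothalamus RNA was total RNA while RNA of the other tissues was selected for polyadenylated transcripts, though another label field gives total RNA for every sample. Tissue and RNA preparation therefore cannot be told apart in any comparison with hypothalamus. In whole tissues, fewer cells of a type and less RNA per cell cannot be told apart either. The scaling also sets the balance of tissue comparisons: of all probe sets called between hypothalamus and liver, 62.8% were higher in hypothalamus under the common scale, 50.1% after quantile normalization and 43.4% after median centring of each array. These shares were 59.99%, 48.5% and 41.5% for hypothalamus against kidney, 35.3%, 45.0% and 51.0% for testis against ovary, 70.6%, 57.2% and 46.1% for ovary against female liver, 67.4%, 56.2% and 45.3% for ovary against female kidney, and 37.2%, 48.6% and 54.5% for testis against male hypothalamus. The median difference of all probe sets between hypothalamus and liver was 0.24 on the log2 scale under the common scale and -0.15 after median centring, and between testis and ovary it was -0.35 and 0.02, so log2 differences of that size are not described as changes without saying which scaling they need.

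**Figure D1:**
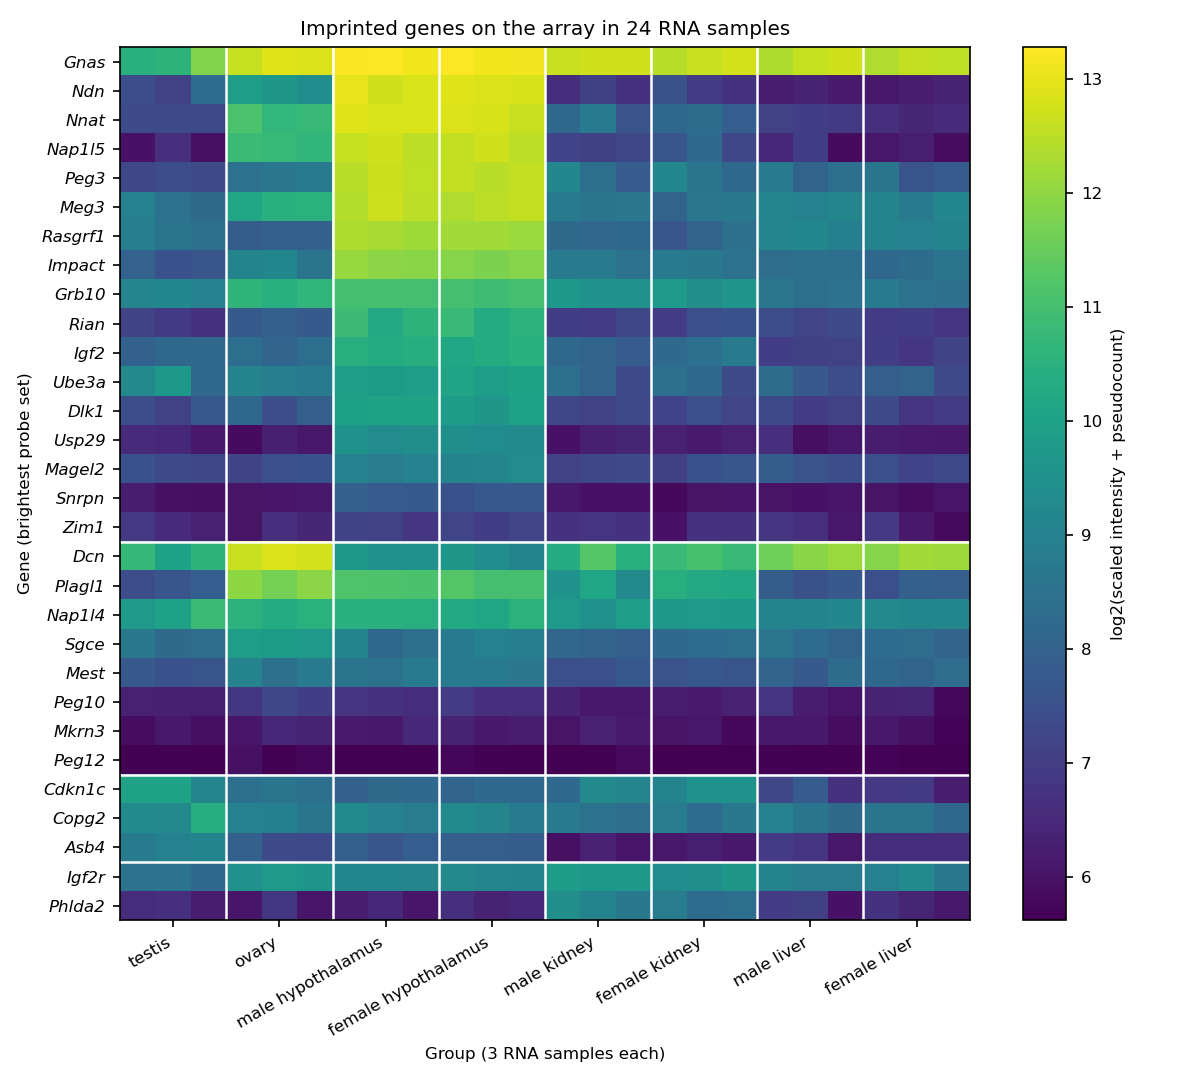
Log2 of scaled intensity plus the pseudocount for the brightest probe set of each of the 30 imprinted genes (rows, grouped by the tissue with the highest mean) in the 24 RNA samples (columns). The rows of Peg3, Ndn, Nnat and Meg3 are bright in all 6 hypothalamus samples, those of Dcn and Plagl1 in ovary, and that of Phlda2 in kidney.

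Of the 30 genes, 25 lay above the 40th percentile of their array (an intensity of 109 to 183) in at least 3 of the 24 RNA samples. The filter was passed in testis by 15 genes, in ovary by 20, in hypothalamus by 24, in kidney by 18 and in liver by 15, and 12 genes passed it in all 5 tissues. Dlk1 and Usp29 passed only through hypothalamus and Phlda2 only through kidney, so that they differ between tissues follows in part from the filter. The 5 genes below the filter were Mkrn3, Peg10, Peg12, Snrpn and Zim1. Among these, Snrpn, the splicing-related gene of the Prader-Willi cluster, measured 140 to 204 in hypothalamus and averaged 18.05 in testis, 19.4 in ovary, 15.8 in kidney and 15.9 in liver. Peg10, derived from a retrotransposon and needed for the placenta, measured 68.7 to 108 in ovary and averaged 29.8 in testis, 58.0 in hypothalamus, 26.4 in kidney and 30.4 in liver. Zim1, a zinc finger gene beside Peg3, measured 66.3 to 102 in hypothalamus and averaged 36.1 to 50.6 in the other tissues. Mkrn3, a makorin ring finger gene, averaged 14.8 to 32.2 in all 5 tissues, and Peg12, a gene of the Frat family, averaged 1.87 to 6.60. The 6 hypothalamus samples of Snrpn lay above all its other samples, while the values of Mkrn3 and Peg12 are too low to order the tissues.

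The tissue with the highest mean was hypothalamus for 15 of the 25 genes above the filter, ovary for 5, testis for 3, kidney for 2 and liver for 0. Of all 10732 genes tested in the 24 samples, the highest mean was in hypothalamus for 26.3%, in testis for 24.6%, in ovary for 19.7%, in liver for 15.9% and in kidney for 13.5%. The hypothalamus passed limma's test against each of the other 4 tissues for 14 of the 25 genes, which is 56.0%, against 16.6% of all genes. Dlk1 and Usp29, which passed the filter only through hypothalamus, are among these 14. The list was also chosen with earlier results of these data known, so these shares only describe it. The lowest mean was in liver for 9 of the 25, in testis for 7, in kidney for 5, in ovary for 3 and in hypothalamus for Dcn alone. Counted over all 30 genes with no filter, 26 were higher and 1 lower in hypothalamus than in liver (limma, adjusted p under 0.05), where 45.5% of all probe sets were called higher and 23.9% lower. Against kidney, 24 of the 30 were higher and 4 lower in hypothalamus, where 42.3% of all probe sets were called higher and 24% lower. The median log2 difference of the 30 genes was 1.67 against liver and 1.57 against kidney.

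Peg3 and Usp29, the paternally expressed neighbours that start within the same stretch of chromosome 7, were both high in hypothalamus. Peg3 (chr7:6703892-6730462, minus strand), a zinc finger protein tied in mouse to maternal behaviour, measured 105, 124 and 119 in testis, 306, 343 and 379 in ovary, 5665 to 6467 (median 5965) in hypothalamus, 183 to 530 (median 309) in kidney and 145 to 403 (median 258) in liver. Usp29 (chr7:6730559-6967220, plus strand), a ubiquitin-specific protease, measured 46.2, 39.5 and 21.7 in testis, 9.55, 29.4 and 20.3 in ovary, 578 to 680 (median 614) in hypothalamus, 15.6 to 36.5 (median 30.2) in kidney and 12.6 to 51.9 (median 23.3) in liver. For both genes each hypothalamus sample lay above each sample of the other tissues. The log2 difference of Peg3 was 4.001 ± 0.19 (SE) between hypothalamus and kidney, 4.33 ± 0.19 between hypothalamus and liver, -3.94 between ovary and female hypothalamus and -5.21 between testis and male hypothalamus. The limma adjusted p was 1.18e-14 against kidney and 1.98e-15 against liver. In linear units its hypothalamus mean of 5978 ± 285 (SD, n = 6) was 17.1-fold that of kidney and 22.6-fold that of liver. Usp29 rose by 3.14 ± 0.11 in hypothalamus against kidney (limma adjusted p = 4.64e-17) and by 3.18 ± 0.11 against liver (2.55e-17). No other Usp29 probe set passed the filter, and the mean over all probe sets of Usp29 was 358 in hypothalamus. Its levels in testis, kidney, liver and ovary did not differ between neighbours in the order of means, whereas Peg3 was lower in testis than in liver (limma adjusted p = 0.00141).

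Ndn and Magel2, paternally expressed genes of the Prader-Willi region on chromosome 7, had their highest level in hypothalamus too. Necdin (Ndn, chr7:62348277-62349928), a MAGE family protein of neurons, measured 126, 87.7 and 266 in testis, 914, 770 and 617 in ovary, 6751 to 8151 (median 7383) in hypothalamus, 49.1 to 133 (median 67.5) in kidney and 21.3 to 35.1 (median 25.4) in liver. The hypothalamus mean was 7404 ± 457 (SD, n = 6) and the ovary came next. By this probe set all neighbours in the order hypothalamus, ovary, testis, kidney, liver differed by limma. Only 1 of 6 kidney samples and 0 of 6 liver samples lay above the filter level, however, and among its other 5 probe sets 3 gave another call between testis and male kidney and 2 between kidney and liver, so the order of the low tissues is uncertain. The log2 difference was 5.93 ± 0.16 (SE) against kidney (limma adjusted p = 2.62e-19) and 6.63 ± 0.16 against liver (2.37e-20). Of the 6 Ndn probe sets tested, 5 were called in both comparisons and 1 was called in neither. Magel2, its relative, averaged 488 ± 57.8 in hypothalamus (SD, n = 6) and 116 to 132 in the other tissues, and rose by 1.73 against kidney and 1.58 against liver. Ube3a, the E3 ubiquitin ligase of the same region that neurons express from the maternal copy, averaged 938 ± 74.8 in hypothalamus, 213 ± 82.0 in kidney and 182 ± 61.0 in liver (SD, n = 6 each). It rose in hypothalamus by 1.98 against kidney and 2.14 against liver. Its lower level in testis than in male hypothalamus (-0.85, limma adjusted p = 0.0259) was lost after quantile normalization (-0.63), after median centring (-0.44) and without male hypothalamus samples 1 (-0.82) or 3 (-0.83) or testis sample 3 (-0.41, adjusted p = 0.248), and another Ube3a probe set was called the other way (0.69).

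The chromosome 12 cluster holds the maternally expressed noncoding RNAs Meg3 and Rian and the paternally expressed Dlk1, and all 3 had their highest level in hypothalamus. Meg3 (chr12:109540996-109571729) measured 442, 306 and 256 in testis, 1069, 1381 and 1420 in ovary, 5270 to 6530 (median 5773) in hypothalamus, 218 to 377 (median 354) in kidney and 402 to 531 (median 491) in liver. Hypothalamus and then ovary stood apart from the other 3 tissues without overlap. Meg3 rose by 3.95 in hypothalamus against kidney and by 3.48 ± 0.12 (SE) against liver, and its level was 17.3-fold that of kidney. Rian, host of small nucleolar RNAs, averaged 1479 ± 259 in hypothalamus, 102 ± 27.9 in kidney and 93.6 ± 24.2 in liver (SD, n = 6 each), and rose by 3.35 and 3.43. Dlk1, a membrane protein related to Notch ligands, averaged 924 ± 93.7 in hypothalamus, 107 ± 16.3 in kidney and 89.8 ± 21.7 in liver, and rose by 2.66 and 2.84. Its levels in ovary, testis, kidney and liver did not differ between neighbours. The brightest probe sets of Meg3, Dlk1, Rasgrf1, Gnas and Plagl1 are of designs that can read related transcripts.

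Nnat and Nap1l5, both paternally expressed genes that lie inside an intron of another gene, were high in hypothalamus and next in ovary. Neuronatin (Nnat, chr2:157560078-157562525, within Blcap), a small protein of the endoplasmic reticulum, measured 116, 111 and 114 in testis, 2160, 1599 and 1722 in ovary, 6373 to 7692 (median 7306) in hypothalamus, 141 to 403 (median 245) in kidney and 38.7 to 92.1 (median 61.9) in liver. Nap1l5 (chr6:58905233-58907126, within Herc3), related to nucleosome assembly proteins, measured 15.5, 54.2 and 13.9 in testis, 1768, 1665 and 1555 in ovary, 5763 to 6688 (median 6118) in hypothalamus, 85.9 to 256 (median 108) in kidney and 8.85 to 83.5 (median 25.2) in liver. In both genes the hypothalamus samples, and below them the ovary samples, did not overlap with any other tissue. The hypothalamus level of Nnat was 29.0-fold that of kidney. In liver 0 of 6 samples lay above the filter level for either gene, so no fold against liver is given. Between ovary and female liver the log2 difference was 4.33 for Nnat and 4.66 ± 0.24 (SE) for Nap1l5 (limma adjusted p = 1.2e-13 for Nap1l5). Testis and liver, the lowest tissues for both, did not differ by the test. Blcap, the host of Nnat, was also higher in hypothalamus than in liver (1.48), where its means were 1331 ± 20.8 in male hypothalamus and 462 ± 128 in male liver (SD, n = 3 each).

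Rasgrf1 and Impact completed the genes with the widest margin of hypothalamus over all 4 other tissues. Rasgrf1 (chr9:89909508-90026979), a paternally expressed exchange factor that activates Ras in neurons, measured 427, 329 and 288 in testis, 186, 208 and 208 in ovary, 4447 to 5113 (median 4719) in hypothalamus, 149 to 300 (median 239) in kidney and 436 to 538 (median 482) in liver. Impact, a paternally expressed regulator of translation on chromosome 18, measured 211, 137 and 153 in testis, 487, 513 and 332 in ovary, 3458 to 4300 (median 3787) in hypothalamus, 307 to 402 (median 376) in kidney and 247 to 327 (median 285) in liver. No hypothalamus sample overlapped with another tissue in either gene. The hypothalamus level of Rasgrf1 was 20.4-fold that of kidney (log2 4.13 ± 0.11 SE, limma adjusted p = 2.83e-19) and 9.85-fold that of liver (3.18 ± 0.11). For Impact the fold was 10.6 against kidney and 13.4 against liver. Rasgrf1 was lower in kidney than in liver by its brightest probe set (-0.95), while its other 2 probe sets gave 0.04 and 0.17 and were not called.

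Igf2, Grb10 and Gnas also had their highest mean in hypothalamus. Igf2, the paternally expressed fetal growth factor, averaged 234 ± 21.9 in testis, 266 ± 37.0 in ovary (SD, n = 3 each), 1272 ± 96.4 in hypothalamus, 264 ± 69.6 in kidney and 83.6 ± 11.03 in liver (SD, n = 6 each). It rose in hypothalamus by 2.11 against kidney and 3.38 ± 0.10 (SE) against liver. No other Igf2 probe set passed the filter, and the mean over all its probe sets was 679 in hypothalamus. The summed level of 6 meninges and choroid plexus markers was 9914 to 13400 in hypothalamus, 11543 to 14894 in kidney and at most 4143 elsewhere, and its part in the Igf2 level was not tested. Grb10 (chr11:11930499-12037428), an adaptor that dampens the insulin and IGF1 receptors, measured 498, 537 and 452 in testis, 1540, 1327 and 1565 in ovary, 1864 to 2042 (median 1996) in hypothalamus, 634 to 794 (median 711) in kidney and 288 to 399 (median 305) in liver. By this probe set its 5 tissues differed between all neighbours. Its other 2 probe sets gave 0.15 and 0.59 between testis and male kidney, where the brightest gave -0.50 and 1 of them was called the opposite way, and were not called between kidney and liver (-0.03 and 0.17, against 1.06 by the brightest). The step between ovary and female hypothalamus (-0.40, limma adjusted p = 0.00883) was lost with first arrays only (-0.36) and without ovary sample 2 (-0.33, adjusted p = 0.0541). Gnas (chr2:174284320-174346744), the locus of the stimulatory G protein alpha subunit, measured 1374, 1471 and 3590 in testis, 6196, 7668 and 7475 in ovary, 8828 to 9885 (median 9277) in hypothalamus, 5565 to 7020 (median 6552) in kidney and 5134 to 6666 (median 6000) in liver. Testis was the low tissue of Gnas by its brightest probe set, at -1.74 against male kidney and -1.60 against male liver. Another Gnas probe set gave -0.20, not called, and -0.49. Ovary and female hypothalamus did not differ by the test (-0.37). They did after quantile normalization (-0.51), with only the compared groups in the fit, and by the other probe set (-0.47). The Gnas calls for hypothalamus against kidney (0.53) and against liver (0.67) were lost after median centring (0.22 and 0.28). The sums of the neuron markers, 9 of 9 with a probe set, and of 6 of 7 glia markers were, like these genes, highest in hypothalamus. The glia sum was 21552 to 25451 there and at most 1700 elsewhere. The neuron sum was 579 to 718 in ovary and 629 to 775 in female liver. Between these tissues Ndn (3.43) and Grb10 (2.02) were higher in ovary, and Rasgrf1 (-1.07) was lower. Whether the genes differ within one cell type was not tested.

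**Figure D2:**
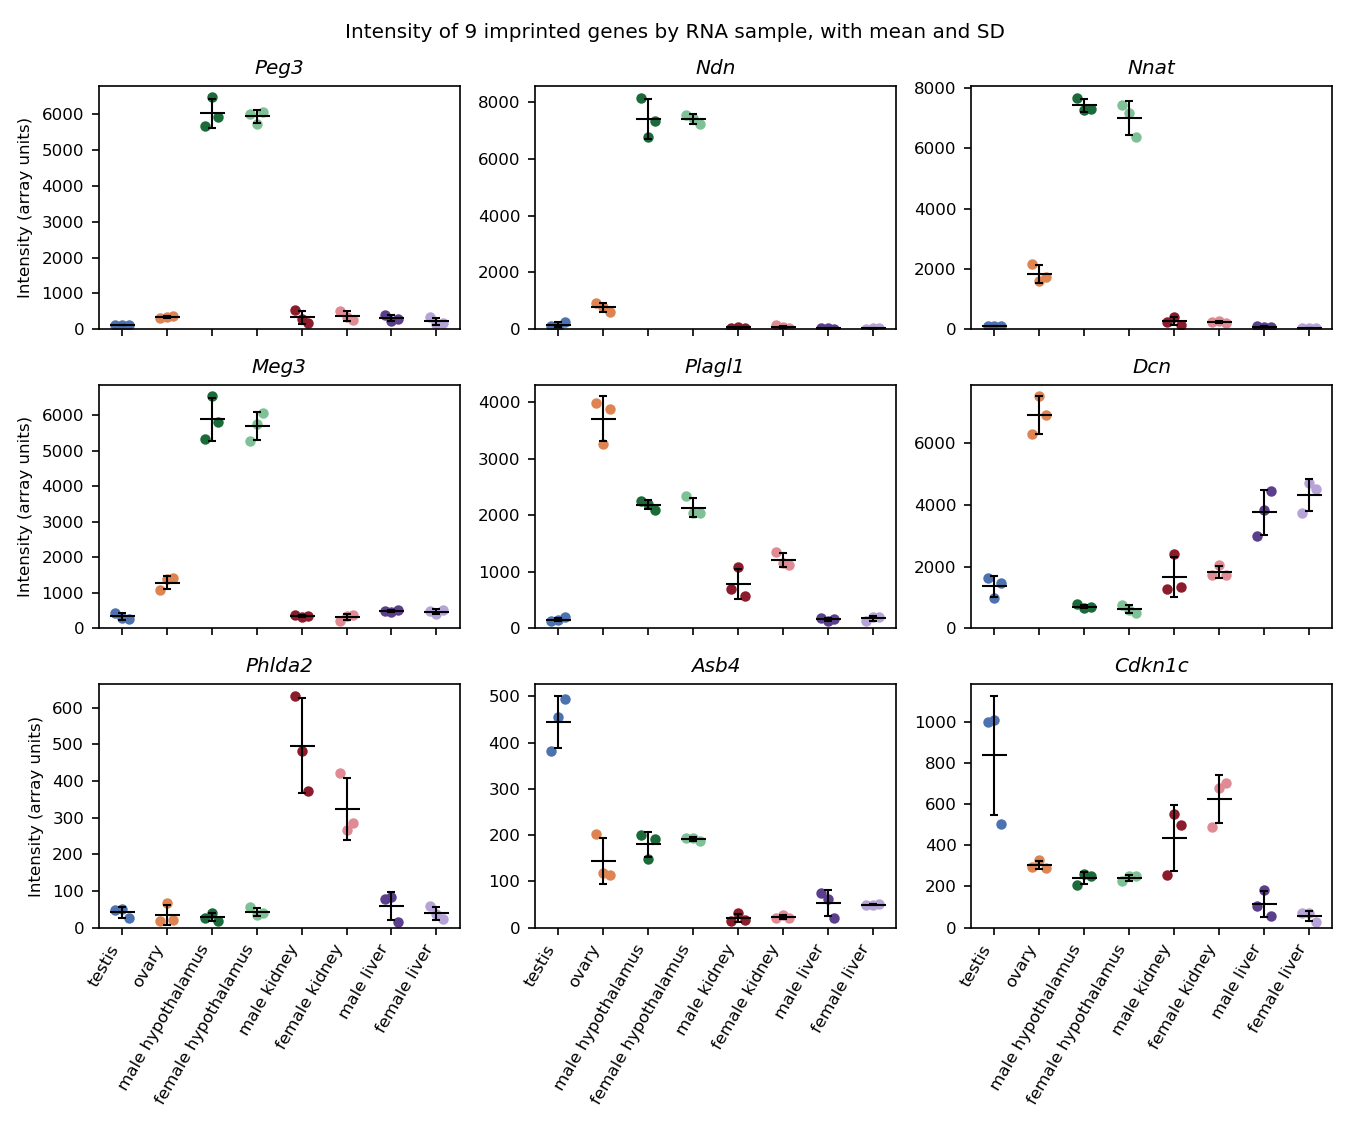
Scaled intensity (vertical axis, array units) of 9 imprinted genes in the 8 groups (horizontal axis), with a point for each of the 3 RNA samples and the mean with SD. Peg3, Ndn, Nnat and Meg3 are highest in hypothalamus, Plagl1 and Dcn in ovary, Phlda2 in kidney, and Asb4 and Cdkn1c in testis.

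The ovary had the highest level of Plagl1, Dcn and Sgce against each other tissue. Plagl1 (chr10:13090832-13131694), a paternally expressed zinc finger transcription factor that slows the cell cycle, measured 125, 151 and 193 in testis, 3990, 3258 and 3885 in ovary, 2040 to 2336 (median 2155) in hypothalamus, 575 to 1350 (median 1101) in kidney and 130 to 200 (median 178) in liver. Its ovary samples lay above all others, and testis and liver overlapped. The log2 difference was 4.08 ± 0.18 (SE) between ovary and female liver (limma adjusted p = 1.02e-14), 1.58 ± 0.18 between ovary and female kidney (2.02e-07) and 0.78 ± 0.18 between ovary and female hypothalamus (0.000879). Plagl1 was also higher in kidney than in liver, by 2.23 ± 0.13 or 5.89-fold. All these differences rest on its brightest probe set, since no other Plagl1 probe set passed the filter. The mean over all its probe sets was 1930 in ovary.

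Decorin (Dcn, chr10:97479500-97518163), a proteoglycan of connective tissue, measured 1622, 987 and 1483 in testis, 6302, 7525 and 6903 in ovary, 489 to 778 (median 674) in hypothalamus, 1268 to 2397 (median 1725) in kidney and 3005 to 4714 (median 4130) in liver. It was the 1 gene of the 25 with its lowest level in hypothalamus, and no ovary sample overlapped with another tissue. The log2 difference was 3.42 ± 0.22 (SE) between ovary and female hypothalamus (limma adjusted p = 5.88e-12), 1.89 ± 0.22 between ovary and female kidney (1.94e-07) and 0.68 ± 0.22 between ovary and female liver (0.0107). The last of these was lost after median centring (0.35), with first arrays only (0.66) and without female liver sample 1 (0.58, adjusted p = 0.0503). The 8 other connective tissue markers, such as Col1a1 and Lum, all with a probe set, summed to 4673 to 5944 in testis, 30672 to 34335 in ovary, 3477 to 3845 in hypothalamus, 7282 to 9809 in kidney and 13946 to 16781 in liver. The liver sum was mostly Fn1, at 10194 to 12505. Without Fn1, a step chosen after its values were seen, the other 7 summed to 4176 to 5443 in testis, 27512 to 30581 in ovary, 2543 to 2849 in hypothalamus, 5586 to 8385 in kidney and 2808 to 4982 in liver, so ovary remained highest and liver no longer stood above kidney. Their part in the Dcn differences was not tested.

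Sgce (chr6:4674350-4747204), the paternally expressed epsilon-sarcoglycan, measured 364, 259 and 281 in testis, 895, 846 and 806 in ovary, 248 to 491 (median 412) in hypothalamus, 195 to 286 (median 242) in kidney and 223 to 344 (median 268) in liver. The ovary stood apart and the other 4 tissues did not differ between neighbours. The log2 difference was 1.56 ± 0.17 (SE) between ovary and female liver (limma adjusted p = 7.68e-08) and 0.94 ± 0.17 between ovary and female hypothalamus (7.51e-05). Mest, a hydrolase-fold protein expressed from the paternal copy, averaged 152 ± 15.7 in testis, 388 ± 86.8 in ovary (SD, n = 3 each), 360 ± 35.8 in hypothalamus, 145 ± 14.7 in kidney and 238 ± 40.2 in liver (SD, n = 6 each), with no difference between ovary and hypothalamus by the test. Nap1l4, a nucleosome assembly protein, averaged 1187 ± 518 in testis, 1368 ± 103 in ovary, 1296 ± 130 in hypothalamus, 789 ± 75.6 in kidney and 513 ± 27.6 in liver, and its first 3 tissues did not differ between neighbours either. Without testis sample 3, however, Nap1l4 was lower in testis than in male hypothalamus (-0.58, limma adjusted p = 0.000576). Counted over all 30 genes with no filter, 20 were higher and 1 lower in ovary than in female liver, where 35.7% of all probe sets were called higher and 14.6% lower. Against female kidney 15 were higher and 2 lower in ovary (29.3% and 13.4% of all probe sets), and against female hypothalamus 4 were higher and 16 lower (24.9% and 25.6%). Among the genes higher in ovary than in female liver were Grb10 (2.02), Cdkn1c (1.82), Meg3 (1.37) and Igf2 (1.32).

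Kidney had the highest level of Phlda2. Phlda2 (chr7:143501545-143503145), a maternally expressed gene that limits growth of the placenta, measured 49.2, 51.5 and 25.1 in testis, 19.2, 66.7 and 19.5 in ovary, 18.9 to 55.1 in hypothalamus, 265 to 632 (median 398) in kidney and 15.4 to 84.6 in liver. All 6 kidney samples lay above every other sample, and the other 4 tissues did not differ between neighbours. The log2 difference was 2.24 ± 0.18 (SE) between kidney and liver (limma adjusted p = 3.94e-10), -2.42 ± 0.18 between hypothalamus and kidney, -2.18 ± 0.26 between ovary and female kidney and -2.58 ± 0.26 between testis and male kidney. Its cluster neighbour Cdkn1c, the cyclin-dependent kinase inhibitor p57, was also higher in kidney than in liver (2.17 ± 0.20, limma adjusted p = 2.71e-09), whereas Nap1l4 of the same cluster differed by 0.57. Igf2r, the maternally expressed receptor that clears IGF2, averaged 298 ± 39.97 in testis, 736 ± 65.5 in ovary (SD, n = 3 each), 514 ± 19.97 in hypothalamus, 739 ± 101 in kidney and 452 ± 70.2 in liver (SD, n = 6 each). Kidney and ovary had nearly the same mean, and ovary against female kidney gave 0.14 by this probe set, which was not called, and 0.59 by the other, which was. Igf2r was lower in hypothalamus than in kidney (-0.48 ± 0.10, limma adjusted p = 0.000125), which its other probe set did not show (-0.04). Hypothalamus and liver did not differ by the test (0.17, adjusted p = 0.115). Igf2r was called higher in hypothalamus than in liver with first arrays only (0.31) and without female liver sample 2 (0.25), and lower after median centring (-0.21). Over all 30 genes with no filter, 11 were higher and 5 lower in kidney than in liver, where 26.4% of all probe sets were called higher and 19.5% lower.

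Testis had the highest level of Asb4, Cdkn1c and Copg2. Asb4 (chr6:5383386-5433022), an ankyrin repeat protein of ubiquitin ligases, measured 383, 457 and 495 in testis, 202, 118 and 114 in ovary, 149 to 200 (median 193) in hypothalamus, 14.1 to 30.9 (median 21.0) in kidney and 21.1 to 74.1 (median 49.6) in liver. The testis samples lay above all others, ovary and hypothalamus overlapped, and kidney was lowest. The testis stood above by 2.87 ± 0.18 (SE) on the log2 scale against male kidney (limma adjusted p = 2.01e-12), 2.33 ± 0.18 against male liver (7.51e-11) and 1.10 ± 0.18 against male hypothalamus (8.7e-06).

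Cdkn1c (chr7:143458339-143461059), expressed from the maternal copy, measured 1000, 1012 and 504 in testis, 295, 327 and 291 in ovary, 206 to 259 (median 250) in hypothalamus, 254 to 703 (median 526) in kidney and 25.6 to 181 (median 71.5) in liver. Testis sample 3 lay within the kidney range and the other testis samples above it. The log2 difference was 2.48 ± 0.28 (SE) between testis and male liver (limma adjusted p = 5.16e-08), 1.57 ± 0.28 between testis and male hypothalamus (3.22e-05) and 0.88 ± 0.28 between testis and male kidney (0.0087). The last was lost with first arrays only (0.77), without male kidney sample 1 (0.57, adjusted p = 0.0855) and without testis sample 2 (0.72, adjusted p = 0.0507). Copg2, a coatomer subunit whose gene overlaps the Mest cluster, measured 568, 546 and 1284 in testis, 461, 439 and 339 in ovary, 387 to 577 (median 486) in hypothalamus, 265 to 411 (median 339) in kidney and 239 to 455 (median 335) in liver. Its high testis mean of 799 ± 420 (SD, n = 3) rests on testis sample 3, the other 2 testis samples lay within the hypothalamus range, and the difference between testis and male hypothalamus (0.58, limma adjusted p = 0.044) was 0.20 without that sample (adjusted p = 0.427). It was also lost with no filter (adjusted p = 0.0512) and without male hypothalamus samples 2 (0.57) or 3 (0.48). Testis sample 3 also had higher Cyp17a1, a Leydig cell enzyme, at 8735, against 4799 and 4280 in the other 2. Over all 30 genes with no filter, 8 were higher and 8 lower in testis than in male liver (28.4% and 30% of all probe sets), 7 higher and 9 lower than in male kidney (25.6% and 31%) and 3 higher and 20 lower than in male hypothalamus (22.4% and 40.6%).

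Setting the genes by their expressed allele, as known from other work, all 13 paternally expressed genes above the filter were higher in hypothalamus than in liver, where 45.2% of all genes tested were called higher and 30.5% lower. All 13 were also higher than in kidney, where 40.7% were called higher and 31.4% lower. Dlk1 and Usp29 are among these 13 and passed the filter only through hypothalamus, so for them a higher level there follows in part from the filter. Of the 12 genes classed as maternally expressed, 9 were higher and 1 lower in hypothalamus than in liver, and 8 were higher and 4 lower than in kidney. The 4 lower than in kidney were Phlda2, Dcn, Cdkn1c (-0.94 ± 0.20 SE, limma adjusted p = 0.000209) and Igf2r, and Dcn was the 1 lower than in liver. The median log2 difference from liver was 3.36 for the paternal and 1.24 for the maternal genes, and from kidney 3.14 and 0.61. Genes of one cluster are not independent of each other and the difference between the allele classes was not tested, so these counts are a description. The maternal class holds Grb10, which uses its paternal copy in neurons. It also holds Dcn, Nap1l4, Phlda2 and Asb4, known as imprinted mainly from placenta or embryo. The paternal class holds Igf2, which uses both copies in choroid plexus and meninges. The classes therefore need not name the copy used in the tissues compared. Between hypothalamus and liver the calls of the paternally expressed Sgce and Mest and the maternally expressed Copg2 were lost after quantile normalization and after median centring, and that of the maternally expressed Gnas after median centring. Against kidney the calls of Sgce (0.23) and Gnas (0.22) were lost after median centring. That of Copg2 was lost after quantile normalization (0.25), after median centring (0.16) and without male hypothalamus sample 1 (0.42), female hypothalamus sample 1 (0.42) or female kidney sample 2 (0.40).

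**Figure D3:**
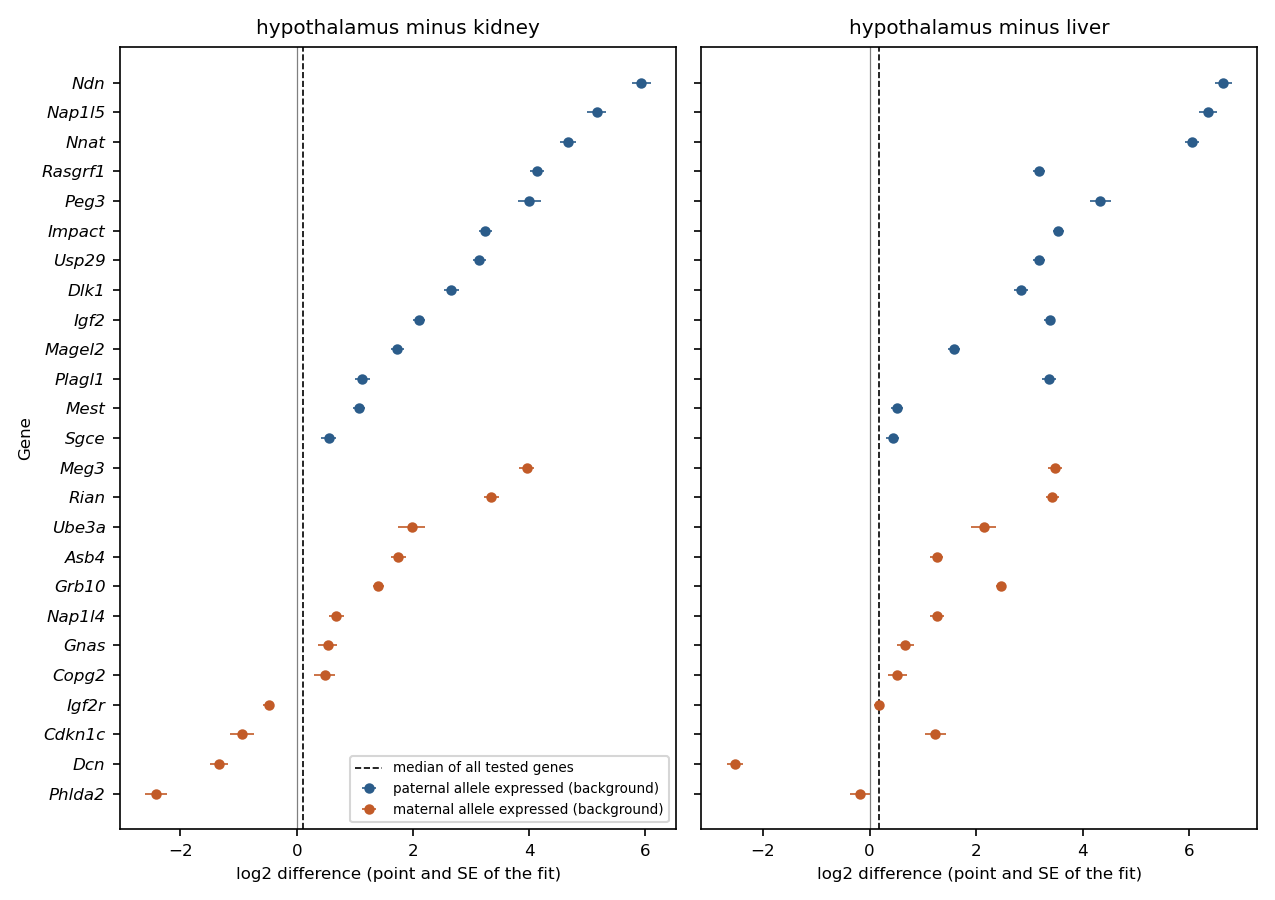
Log2 difference between hypothalamus and kidney (left panel) and between hypothalamus and liver (right panel) for the 25 imprinted genes above the filter (vertical axis), with the SE of the fit. Genes classed as paternally expressed by other work are blue and those classed as maternally expressed orange. The dashed line is the median of all tested genes. All 13 blue points lie to the right of 0 in both panels.

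Between the gonads, more imprinted genes were called lower in testis than were called higher. With no filter, 15 of the 30 were lower and 3 higher in testis than in ovary, where 36.7% of all probe sets were called lower and 17.9% higher. Of the 22 genes above the filter in these 6 samples, 14 fell and 4 rose in testis, against 45.1% and 26.4% of all 9144 genes tested. On the log2 scale with the pseudocount, the largest difference was that of Nap1l5, which averaged 27.9 ± 22.8 in testis and 1663 ± 107 in ovary (SD, n = 3 each, log2 -4.55 ± 0.20 SE, limma adjusted p = 1.23e-07). No testis sample of Nap1l5 lay above the filter level. Plagl1 averaged 156 ± 34.3 in testis and 3711 ± 396 in ovary, 23.7-fold lower in testis (-4.24 ± 0.17, limma adjusted p = 8.24e-08). This rests on its brightest probe set, the only one of Plagl1 above the filter. Nnat averaged 114 ± 2.63 in testis and 1827 ± 295 in ovary (-3.52 ± 0.16, limma adjusted p = 1.56e-07). The samples of testis and ovary given above did not overlap for any of these 3 genes.

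Dcn fell by 2.33 ± 0.20 (SE) in testis against ovary, with means of 1364 ± 334 in testis and 6910 ± 612 in ovary (SD, n = 3 each, limma adjusted p = 6.93e-06). Ndn fell by 2.04 ± 0.29, Gnas by 1.84 ± 0.32, Meg3 by 1.82 ± 0.21 and Grb10 by 1.49 ± 0.15 in testis, with limma adjusted p of 0.000165, 0.000657, 3.83e-05 and 1.98e-05. For Ndn and Gnas testis sample 3 was the highest of the testis samples and still lay below every ovary sample, and without it the differences were -2.38 and -2.28. Sgce (-1.37), Peg3 (-1.25), Igf2r (-1.20), Impact (-1.18), Mest (-1.12) and Rian (-0.91) also fell. A second Grb10 probe set gave 0.04, a second Rian probe set -0.24, and neither was called, while the other Meg3 probe sets ranged from -2.16 to -0.84 with 1 of them not called. The 14 genes that fell kept their call and direction under each alternative tried, quantile normalization and median centring included.

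Asb4 rose by 1.37 ± 0.20 (SE) in testis against ovary, with means of 445 ± 56.999 in testis and 145 ± 49.6 in ovary (SD, n = 3 each, limma adjusted p = 0.000203). Cdkn1c rose by 1.28 ± 0.25, with means of 839 ± 290 in testis and 304 ± 19.8 in ovary (limma adjusted p = 0.00122). Rasgrf1 averaged 348 ± 71.4 in testis and 201 ± 12.8 in ovary and rose by 0.66 ± 0.17 (limma adjusted p = 0.00628). Copg2 passed narrowly (0.78 ± 0.30, limma adjusted p = 0.0381) and no longer passed with no filter or without ovary sample 1 (0.86), 2 (0.83) or 3 (0.67, adjusted p = 0.124). Dlk1 (-0.46), Nap1l4 (-0.27), Igf2 (-0.14) and Ube3a (0.13) did not pass, yet without testis sample 3 Dlk1 (-0.60, adjusted p = 0.0268), Nap1l4 (-0.59, adjusted p = 0.00458) and Ube3a (0.57, adjusted p = 0.0157) did, and Dlk1 also passed without ovary sample 2 (-0.66). Testis sample 3 set these 3 genes apart from the other testis samples, with Ube3a at 239 in it against 551 and 785, and Nap1l4 at 1779 against 816 and 968. A second Ube3a probe set gave 0.88 between testis and ovary and was called.

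Several marker lists differed between the gonads along with these genes. Germ cell markers, all 9 with a probe set, summed to 69132 to 85410 in testis and 2418 to 3255 in ovary. Granulosa cell markers, 6 of 8 with a probe set, summed to 3258 to 3973 in testis and 16975 to 19983 in ovary. Theca, Leydig and luteal markers, also 6 of 8, summed to 8598 to 16013 in testis and 37844 to 48515 in ovary. Of the latter, Star, Cyp11a1, Hsd3b1 and Akr1c18 were higher in ovary. Hsd17b3 was higher in testis (633 to 1330, against 38.0 to 44.2 in ovary), and Cyp17a1 overlapped (4280 to 8735 in testis and 3675 to 5171 in ovary). Adipose markers, 4 of 6 with a probe set, summed to 794 to 2385 in testis and 11639 to 18886 in ovary. None of the granulosa or adipose markers averaged below the pseudocount in ovary. Their part in the differences of imprinted genes was not tested.

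**Figure D4:**
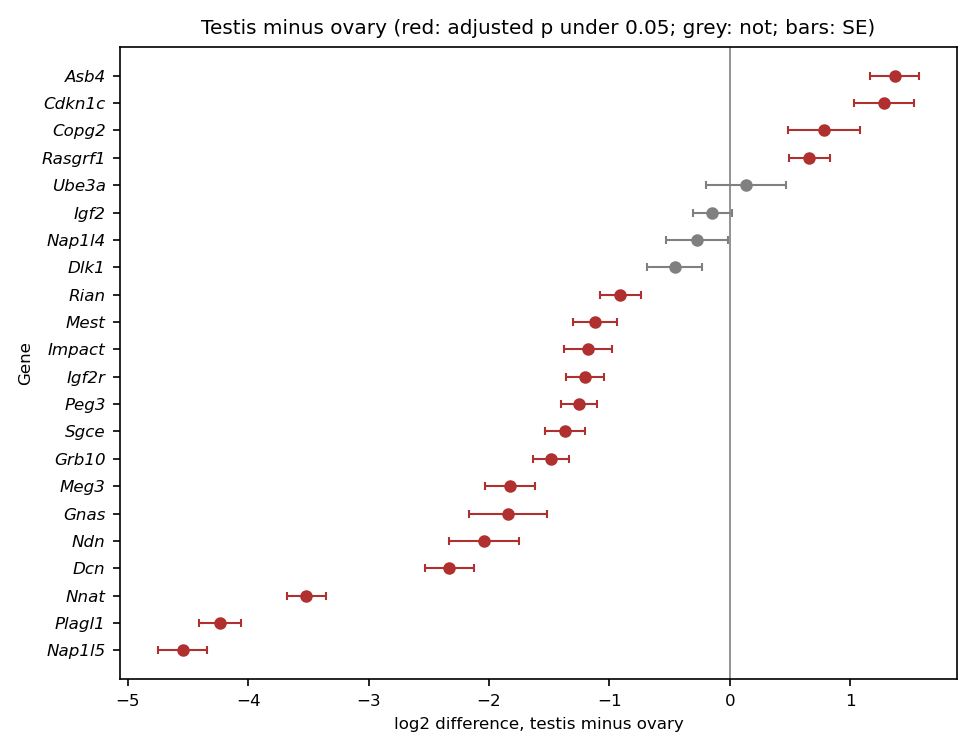
Log2 difference between testis and ovary with the SE of the fit (horizontal axis) for the 22 imprinted genes above the filter in these samples (vertical axis); red points passed limma's test at an adjusted p under 0.05 and grey points did not. The points run from -4.55 for Nap1l5 to 1.37 for Asb4, and 14 of the red points lie left of 0.

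Within a tissue, no imprinted gene differed between males and females at the threshold. In liver 0 of the 15 genes above the filter passed, and 0 had an unadjusted p under 0.05 by limma, against 0.0353% of all genes called. In hypothalamus 0 of 24 passed and 0 had an unadjusted p under 0.05 (0.0367% of all genes called). In kidney 0 of 18 passed and 3 had an unadjusted p under 0.05 (0.296% of all genes called). With the replicate number as a block, 0 imprinted genes passed in each of the 3 tissues. The log2 differences between male and female ran from -0.21 (Dcn) to 0.42 (Peg3) in liver and from -0.29 (Sgce) to 0.22 (Dcn) in hypothalamus.

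The 3 kidney genes with the lowest unadjusted p were Plagl1, Igf2 and Phlda2. Plagl1 measured 701, 1086 and 575 in male kidney and 1350, 1166 and 1116 in female kidney, so every male sample was lower, by -0.63 ± 0.22 (SE, limma adjusted p = 0.813). Igf2 measured 242, 224 and 183 in male kidney and 253, 294 and 385 in female kidney, again without overlap, with a difference of -0.42 ± 0.18 (limma adjusted p = 0.966). Phlda2 measured 632, 483 and 374 in male kidney and 422, 265 and 284 in female kidney, where the groups overlapped, with a difference of 0.54 ± 0.23 (limma adjusted p = 0.97). None of these differences passed after adjustment over all probe sets. In female kidney, the sum of the theca, Leydig and luteal markers ranged from 1128 to 4371, against 1585 to 1803 in male kidney. The adrenal cortex markers summed to 1494, 1388 and 658 in female kidney samples 1, 2 and 3, against 654 to 875 in male kidney. Star, which is on both lists, measured 340, 309 and 28.6 in these female samples and 66.2 to 161 in male kidney. The part of such cells in the sex differences was not tested. With 3 samples a group, even the differences of Plagl1, Igf2 and Phlda2 did not pass, and a p above the threshold does not show that the sexes were equal. In simulated data with the spread of each probe set in these samples and no pairing, limma called 41% of 2-fold and 0% of 1.5-fold changes in kidney. It called 51% and 10% in liver, and 89% and 58% in hypothalamus.

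The male-female difference of a gene was also compared between tissues, in fits that did not pair same-numbered samples unless stated. Of 25 imprinted genes, 0 passed the interaction test for liver against kidney (5 with an unadjusted p under 0.05, 0.3% of all genes called), 0 for hypothalamus against liver (1 with an unadjusted p under 0.05, 0.03% called) and 0 for hypothalamus against kidney (3 with an unadjusted p under 0.05, 0.26% called). The lowest p was that of Cdkn1c between liver and kidney, where the sex differences stood apart by 1.14 ± 0.39 (SE, limma adjusted p = 0.624). Blocked on replicate number, its adjusted p was 0.0292, and with the technical replicate arrays alone the value was 1.72 (adjusted p = 0.0249). In liver, Cdkn1c measured 105, 181 and 56.2 in males and 69.9, 73.0 and 25.6 in females, and in kidney 254, 554 and 497 in males and 490, 680 and 703 in females. Males and females overlapped in both tissues as groups, while within same-numbered pairs the male was higher in 3 of 3 liver pairs and lower in 3 of 3 kidney pairs.

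**Figure D5:**
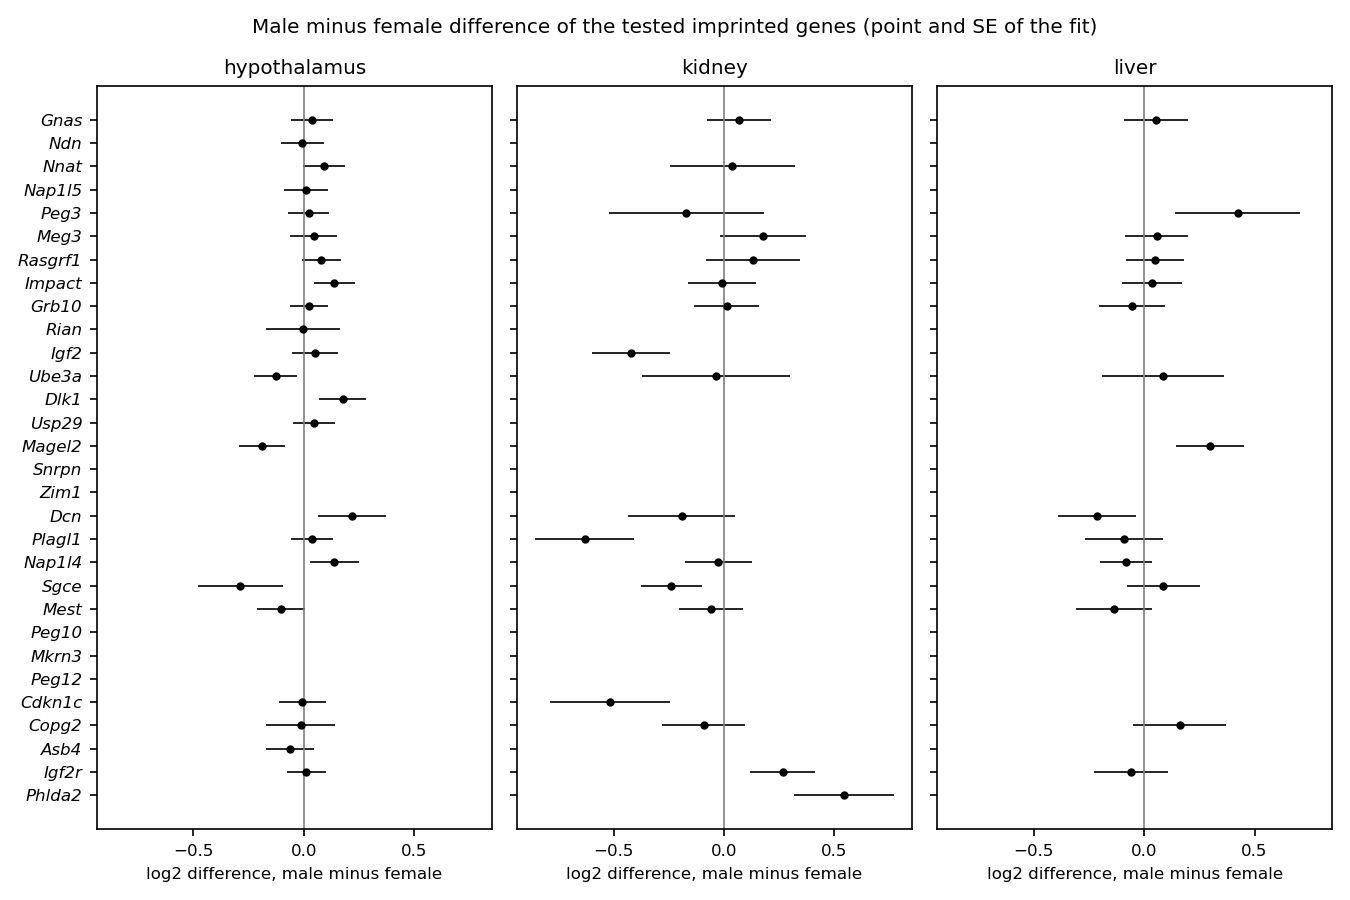
Log2 difference between males and females with the SE of the fit (horizontal axis) for the imprinted genes above the filter in hypothalamus, kidney and liver (panels). No point passed limma's test; the kidney panel has the widest spread, from -0.63 for Plagl1 to 0.54 for Phlda2.

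Imprinted genes outside the list were read from a second list of 40, of which 25 had a probe set, and they lay on both sides in hypothalamus. Of 21 tested between hypothalamus and liver, 11 were higher and 7 lower in hypothalamus, where 45.2% of all genes were called higher and 30.5% lower. The 4 with the lowest p were all lower in hypothalamus. Slc38a4, a paternally expressed amino acid carrier of liver, averaged 8.17 ± 2.35 in male hypothalamus and 7998 ± 1274 in male liver (log2 -7.13, SD, n = 3 each). Slc22a18, a transporter in the cluster of Phlda2 and Cdkn1c, averaged 47.2 ± 10.7 in male hypothalamus, 7457 ± 1297 in male kidney and 2165 ± 201 in male liver, and was higher in kidney than in liver (1.64) like those 2 genes. Tfpi2, a protease inhibitor (-3.83), and Pon3, a paraoxonase (-3.39), were the other two. Of 15 tested between the gonads, 5 were higher and 7 lower in testis, where 26.4% of all genes were called higher and 45.1% lower. Casd1, a neighbour of Sgce, averaged 111 ± 8.48 in testis and 863 ± 76.4 in ovary (-2.51), while Sfmbt2, a Polycomb-related gene, averaged 572 ± 193 in testis and 95.8 ± 11.5 in ovary (2.07).

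Genes that set or keep imprints were read from a list of 20, of which 15 had a probe set, and many were higher in the gonads than in liver or kidney. In ovary 12 of the 15 were higher and 0 lower than in female liver, where 41.9% of all genes tested were called higher, and 12 were higher and 0 lower than in female kidney, where 34.2% were. In testis 10 were higher and 1 lower than in male liver (34.5% and 35.8% of all genes), and 9 higher and 2 lower than in male kidney (31% and 37.3%). In hypothalamus 9 were higher and 2 lower than in liver (45.2% and 30.5%), and 7 higher and 1 lower than in kidney (40.7% and 31.4%). The share higher than in kidney was thus near that of all genes. This list was counted under the common scale only. Zfp57, the zinc finger protein that protects imprints in the early embryo, averaged 189 ± 38.5 in testis and 187 ± 33.7 in ovary and at most 28.5 in the other groups (SD, n = 3 each). Ezh2, the Polycomb methyltransferase, averaged 1224 ± 190 in testis, 464 ± 45.6 in ovary and 141 to 214 elsewhere. Between the gonads 3 of 14 were higher and 5 lower in testis, where 26.4% of all genes were called higher and 45.1% lower. The 4 with the lowest p were Dnmt3a, which lays down new DNA methylation (-1.64), Dppa3, also known as Stella, which guards it in the egg (-1.39), Ctcf, the insulator protein (-1.22), and Ezh2 (1.31).

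The IGF and insulin genes that act with Igf2, Igf2r and Grb10 were read from a list of 15, of which 14 had a probe set. Of 11 tested between the gonads, 2 were higher and 8 lower in testis, where 26.4% of all genes were called higher and 45.1% lower. Igfbp5, an IGF binding protein, averaged 43.2 ± 6.53 in testis and 2127 ± 82.0 in ovary (log2 -4.57, SD, n = 3 each). Irs1, an insulin receptor substrate, averaged 132 ± 21.7 in testis and 1989 ± 83.8 in ovary (-3.49). Igf2bp3, an RNA binding protein known for binding Igf2 transcripts, averaged 1900 ± 563 in testis and 36.8 ± 36.4 in ovary (4.59). Of 13 tested between hypothalamus and liver, 6 were higher and 6 lower in hypothalamus, where 45.2% of all genes were called higher and 30.5% lower. Igf1, which liver makes for the circulation, averaged 132 ± 18.5 in male hypothalamus and 8109 ± 1121 in male liver (-5.40). Between males and females 0 of these genes passed in liver, kidney or hypothalamus by limma, with 0, 1 and 0 at an unadjusted p under 0.05.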

How the data were processed

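RNA of 5 mouse tissues was measured on 48 Affymetrix arrays. The authors deposited, for each array, a linear intensity for every probe set. How they summarised and scaled probes is not given in the sources used here; labelling followed Affymetrix protocols per the labels. The 64 control probe sets were left out of 22690. Of the 22626 kept, 20380 had 1 gene symbol in the platform annotation, 691 several and 1555 none. Symbols were updated through RefSeq (GRCm38.p6). Members and lists were chosen with earlier results of these data known.

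The deposited arrays had 2% trimmed means of 500.11 to 500.23, which were made equal. For testing, 48.3, the 20th percentile of all intensities, was added as pseudocount before taking log2 of the deposited values, and logs were averaged over the 2 arrays of an RNA sample. The pseudocount makes log2 differences of dim genes smaller than their ratios. Intensities are given as mean ± SD over RNA samples, without the pseudocount, and folds are ratios of these means. Tests took in probe sets exceeding their array's 40th percentile in at least 3 RNA samples of the fit. Sexes within a tissue, and testis and ovary, were compared in fits of 6 RNA samples with limma 3.58.1 in R 4.3.3 (lmFit, eBayes, Benjamini-Hochberg, threshold 0.05). Other tissue comparisons came from 1 fit of all 24, interactions from the 18 of liver, kidney and hypothalamus. Tables and figures used Python 3.11.15, pandas 2.3.3 and matplotlib 3.10.9. The fits were tested on simulated data.

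A gene with several probe sets is represented by that with the highest mean. Single samples or their ranges are given for the 8 members with the largest called difference between testis and ovary and up to 5 members per tissue that were highest there against each other tissue, by the smallest margin; other members by means, and up to 4 genes of other lists by p. Same-numbered samples deviated together within liver (correlation 0.139 to 0.535), kidney (0.424 to 0.627) and hypothalamus (0.101 to 0.392). They also did between kidney and liver (0.151 to 0.449). All these correlations exceeded 0.1, so numbers were taken to pair samples there. They were not taken so between testis and ovary (0.0422 to 0.146) or in the other tissue comparisons. Differently numbered samples correlated at up to 0.286 in liver, 0.0906 in hypothalamus and 0.0325 between testis and ovary, so pairing in liver and hypothalamus is uncertain. The main fits did not use the pairing, which entered only through the replicate block. Alternatives tried were quantile normalization, median centring, 0.25 and 4 times the pseudocount, no filter, 1 of the 2 arrays alone, an intensity trend, the replicate block, other samples in the fit and leaving out each sample.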

Additional observations from a re-analysis of the deposited data

How the results depend on the processing

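Single imprinted genes were recomputed 5314 times over all comparisons and alternatives, of which 99 lost a call, 34 gained one and 1 reversed. The reversal was Igf2r between hypothalamus and liver, -0.21 after median centring. Levels depended on the probe set. For each of the 13 genes with several probe sets, averaging them moved the mean of the brightest tissue by at least its SD. Gnas, for example, went from 9321 to 2421 in hypothalamus and Plagl1 from 3711 to 1930 in ovary. The tissue with the highest mean stayed the same for 12 of the 13. The number of imprinted genes called stayed within 1.5 times in each comparison but the liver against kidney interaction, where 0 became 1 (Cdkn1c) with the technical replicate arrays and 1 with the replicate block. Leaving out 1 sample, it ranged from 17 to 21 for testis against ovary, 23 to 24 and 24 to 25 for hypothalamus against liver and kidney, and 15 to 17 for kidney against liver.

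Counts over all probe sets between sexes moved more. Liver gave 7, and 4 with 4 times the pseudocount, 4 with no filter, 11 with the replicate block, 24 with all 8 groups in 1 fit and 4 to 7 leaving out 1 sample. Kidney gave 32, and 145 with the block, 132 with all 8 groups and 15 to 53 leaving out 1 sample. The interaction of liver against kidney gave 40, and 26 with first arrays, 74 with the block and 28 to 74 leaving out 1 sample. That of hypothalamus against liver gave 3, and 1 with 0.25 times and 0 with 4 times the pseudocount, 0 with technical replicate arrays, 0 with no filter, 6 with the block and 0 to 6 leaving out 1 sample. That of hypothalamus against kidney gave 35, and 23 with 0.25 times the pseudocount, 23 with first arrays, 64 with the block and 21 to 80 leaving out 1 sample. The cause of these shifts was not tested. Among the counts leaving out 1 sample, those without male kidney sample 2 were the highest, at 53 in kidney and 74 and 80 in the interactions with kidney. Leaving out male liver sample 2 gave 6 in the interaction of hypothalamus against liver. Where numbers pair the samples, the block changed no other count of imprinted genes. Where they do not, it also called Dlk1 between testis and ovary (-0.46, as did all 8 groups in 1 fit), Peg3 between ovary and female liver (0.59) and Sgce between testis and male kidney (0.38). Dim genes such as Snrpn and Mkrn3 are limited by signal over background, and 3 samples a group limit every sex comparison.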
